A study of Caenorhabditis elegans with 8 samples.

Results

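A set of 9 named genes of molting and of the apical extracellular matrix of *C. elegans* was examined in bulk RNA-seq of whole worms. They are the peroxidase gene *mlt-7*, the molting genes *mlt-8*, *mlt-9*, *mlt-10* and *mlt-11*, the matrix genes *noah-1*, *noah-2* and *fbn-1*, and the dual oxidase gene *bli-3*. The members were chosen by gene name, and all 9 were found among the 46926 genes of the count table. All 9 were also among the 16808 genes with enough counts to be tested.

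The worm is covered by a collagen cuticle that the epidermis secretes. At each larval molt the epidermis first lays down a temporary precuticle of zona pellucida-domain, fibrillin-like and lipocalin proteins, then builds the new cuticle beneath the old one, and the old cuticle is shed. Genes of this program are transcribed in pulses, once in each molting cycle, so their transcript levels are known to change within a larval stage.

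The study compared animals lacking *smrd-1*, the worm ortholog of the chromatin remodeler SMARCAD1, with the N2 wild-type strain, in 4 libraries per group. The null strain carries a CRISPR deletion in *smrd-1* and is 1 line, as is N2. No tau transgene was present in either group, and both strains were kept at the same temperature on OP50 *Escherichia coli*. Polyadenylated RNA of whole bodies was sequenced. The extraction protocol gives snap-frozen L4 larvae, while the series description speaks of adults, and no age in hours was given. The labels do not say whether replicates were separate cultures, so p-values measure only the spread between these libraries.

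Each library held between 74704022 and 78008833 counts, and the 9 genes together took between 0.136% and 0.412% of them. Counts of *smrd-1* went against the labels. Its level was 48.9, 42.1, 50.3 and 50.3 CPM (counts scaled to library size) in N2 libraries 1 to 4, and 87.6, 85.6, 88.3 and 78.8 CPM in libraries 1 to 4 labeled *smrd-1 null*. The log2 fold change was 0.83 (SE 0.081, adjusted p = 0.0089). The count covers the whole gene, exons outside the deletion included, so it does not measure the deleted exons. The study's methods state that strains without an obvious phenotype were genotyped by PCR with sequencing or digestion, which concerns the strains and not these libraries. Groups are therefore called N2 and null-labeled below, and every direction holds only if the labels do. CPM were scaled by the trimmed mean of M-values (TMM), and a gene was called at a Benjamini-Hochberg adjusted p of at most 0.05 in edgeR's quasi-likelihood test over all 16808 genes.

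None of the 9 genes was called between the 2 labels, against 26 called genes, or 0.155%, of all genes tested. No member had an unadjusted p under 0.05 in edgeR, beside 1301 of the 16808 genes tested, and DESeq2 also called no member. The DESeq2 comparison called 1.26% of 19900 genes. Of the members, 2 had a higher fitted level and 7 a lower one in the null-labeled libraries, beside 8167 and 8641 of all genes tested. Their median log2 fold change was -0.19, beside -0.0082 over all genes tested. The members' fold changes ranged from -0.82 to 0.18 on the log2 scale, and the smallest adjusted p was 0.706. The levels of the 2 groups overlapped for all 9 genes, while they did not overlap for 5.2% of all genes. Over all 8 libraries, the gap between the highest and the lowest reached 39.2-fold for *fbn-1* and was 1.29-fold for *bli-3*. In whole worms, fewer cells of a type and less RNA per cell cannot be told apart.

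**Figure D1:**
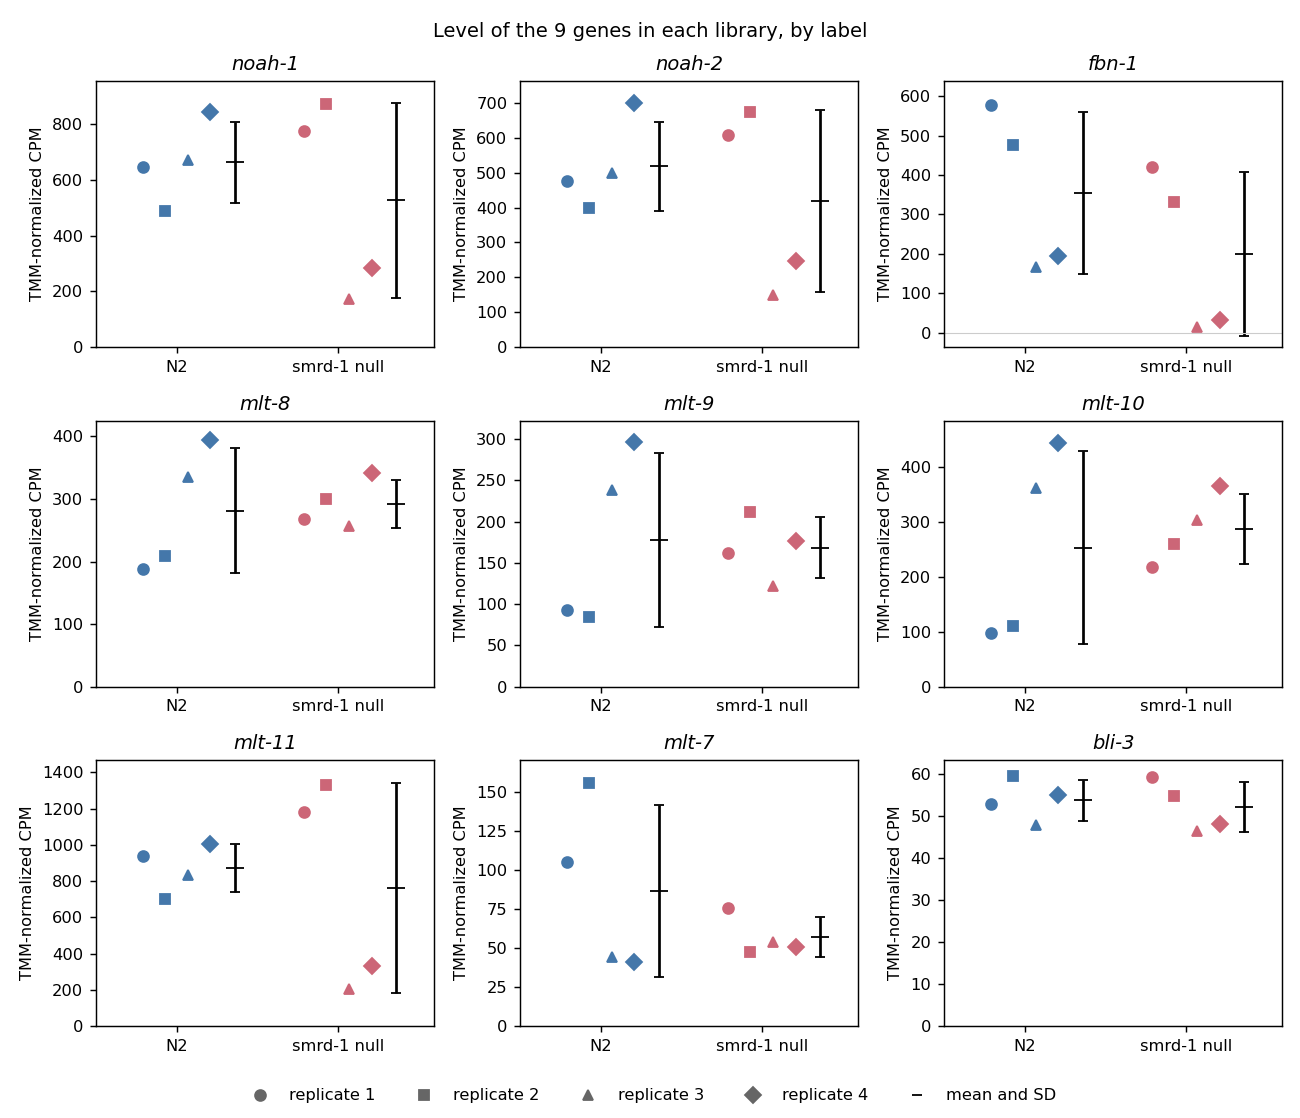
TMM-normalized CPM (vertical axis, linear) of each of the 9 genes in N2 and null-labeled libraries, with 1 symbol per replicate number and the mean and SD of each group of 4 as a bar. In *noah-1*, *noah-2*, *fbn-1* and *mlt-11*, null-labeled libraries 3 and 4 sit below the other 6, while in *mlt-9* and *mlt-10* the lowest points are N2 libraries 1 and 2.

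The first group comprises the structural proteins of the precuticle. *noah-1* (WBGene00016422) and *noah-2* (WBGene00009926) encode zona pellucida-domain proteins of the apical matrix. *noah-1* lies on chromosome I at 5874416-5878958, minus strand, and *noah-2* on chromosome IV at 14091254-14096626, plus strand, in WBcel235.

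*noah-1* stood at 647, 489, 670 and 843 CPM in N2 libraries 1 to 4, and at 774, 871, 173 and 284 CPM in null-labeled libraries 1 to 4. The 2 lowest libraries were null-labeled 3 and 4, and the highest was null-labeled 2, so the null-labeled group held both ends of the range. The group means were 662 ± 145 CPM in N2 and 526 ± 348 CPM in the null-labeled libraries (SD, n = 4 each). The log2 fold change was -0.33 (SE 0.472, adjusted p = 0.821, exact permutation p = 0.4).

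*noah-2* stood at 475, 398, 500 and 699 CPM in N2 libraries 1 to 4, and at 607, 674, 148 and 248 CPM in null-labeled libraries 1 to 4. Its libraries took a similar order, with null-labeled 3 and 4 again lowest. Its log2 fold change was -0.31 (SE 0.446, adjusted p = 0.825, exact permutation p = 0.4). Of its exonic bases, 21 are shared with the piRNA gene 21ur-11897 on the same strand.

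*noah-1* and *noah-2* moved together from library to library although they lie on different chromosomes. After each was centered on its own mean, their log2 levels differed by a root mean square (RMS) of 0.0838, the smallest of all pairs of members. Per kilobase of exon, the ratio of *noah-2* to *noah-1* stayed between 1.09 and 1.29 over the 8 libraries, while each gene alone varied 5.02-fold for *noah-1* and 4.71-fold for *noah-2*.

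*fbn-1* (WBGene00022816) encodes a fibrillin-like matrix protein. It lies on chromosome III at 7625386-7641078, plus strand. In N2 libraries 1 to 4 it stood at 579, 475, 166 and 194 CPM, and in null-labeled libraries 1 to 4 at 421, 330, 14.7 and 32.4 CPM. Each null-labeled library was below the N2 library of the same number, but null-labeled 1 and 2 were above N2 3 and 4, and the groups overlapped.

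The means of *fbn-1* were 354 ± 205 CPM in N2 and 199.7 ± 207 CPM in the null-labeled libraries (SD, n = 4 each). The log2 fold change was -0.82 (SE 0.957, adjusted p = 0.789, exact permutation p = 0.286), the lowest of the 9 and also the least precise. Over the 8 libraries the SD of its log2 level was 1.93, above that of 99.9% of all genes tested, whose median SD was 0.325. Its lowest library still held 1148 counts. Of its exonic bases, 45 are shared with *upp-1* on the opposite strand, and strand was not used in counting.

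The second group comprises the secreted molting proteins. *mlt-11* (WBGene00012186, chromosome V, 20667205-20678537, plus strand) encodes a protein with Kunitz-type protease inhibitor domains. It stood at 940, 703, 832 and 1006 CPM in N2 libraries 1 to 4 and at 1183, 1332, 204 and 331 CPM in null-labeled libraries 1 to 4. All 4 N2 libraries lay between the high and the low null-labeled pairs. The SD was 132 CPM in N2 and 577 CPM in the null-labeled group, around means of 870 and 763 CPM (n = 4 each), and the log2 fold change was -0.19 (SE 0.540, adjusted p = 0.908, exact permutation p = 0.429).

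*mlt-11* kept close to the *noah* genes. Its centered log2 profile differed from that of *noah-1* by an RMS of 0.163 and from that of *noah-2* by 0.224, the next smallest distances among the members. Per kilobase, the ratio of *mlt-11* to *noah-1* ranged from 0.451 to 0.593.

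*mlt-8* (WBGene00021095) and *mlt-10* (WBGene00015646) lie near the same end of chromosome II, at 569210-572110 on the minus strand and at 546705-552032 on the plus strand. *mlt-10* encodes a proline-rich repeat protein after which the *mltn* family is named. *mlt-9* (WBGene00008605) lies on chromosome X at 15101786-15107797, minus strand. All 3 are needed for molting, and in all 3 N2 libraries 1 and 2 were below, and N2 library 4 above, every null-labeled library.

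*mlt-8* stood at 188, 209, 335 and 394 CPM in N2 libraries 1 to 4, and at 268, 299.7, 256 and 342 CPM in null-labeled libraries 1 to 4. The lowest 2 libraries were N2 1 and 2, and the highest was N2 4. On the log2 scale the fold change was 0.05 (SE 0.237, adjusted p = 0.946, exact permutation p = 0.714).

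*mlt-9* stood at 92.8, 84.6, 238 and 296 CPM in N2 libraries 1 to 4, and at 162, 212, 122 and 176 CPM in null-labeled libraries 1 to 4. The 2 lowest libraries were again N2 1 and 2, and the highest was N2 4. Null-labeled minus N2, the log2 fold change was -0.08 (SE 0.406, adjusted p = 0.949, exact permutation p = 0.857).

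*mlt-10* stood at 98.3, 110.4, 362 and 444 CPM in N2 libraries 1 to 4, and at 218, 259.8, 304 and 367 CPM in null-labeled libraries 1 to 4. N2 1 and 2 were lowest here too and N2 4 highest, and null-labeled 3 and 4 were above null-labeled 1 and 2. The log2 fold change was 0.18 (SE 0.480, adjusted p = 0.903, exact permutation p = 0.429). Of its exonic bases, 109 are shared with *lips-7* and 16 with T27A1.3.

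The SDs of these 3 genes were wider among the N2 libraries than among the null-labeled ones. For *mlt-10* the means were 254 ± 176 CPM in N2 and 287 ± 63.7 CPM in the null-labeled libraries, for *mlt-9* 178 ± 106 and 168 ± 37.05 CPM, and for *mlt-8* 281 ± 99.4 and 291 ± 38.3 CPM (SD, n = 4 each). The opposite held for *noah-1*, *noah-2* and *mlt-11*. The difference in spread was not tested.

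The last group comprises the enzymes of oxidative cross-linking. *bli-3* (WBGene00000253, chromosome I, 145968-154855, minus strand) encodes a dual oxidase that makes hydrogen peroxide for tyrosine cross-links between cuticle collagens, and *mlt-7* (WBGene00022743, chromosome II, 4393007-4404850, plus strand) a heme peroxidase that can use it.

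*bli-3* stood at 52.8, 59.7, 47.8 and 55.0 CPM in N2 libraries 1 to 4, and at 59.3, 54.8, 46.5 and 48.2 CPM in null-labeled libraries 1 to 4. No library stood apart. Its fitted log2 fold change was -0.04 (SE 0.104, adjusted p = 0.888, exact permutation p = 0.686), and the SD of its log2 level over the 8 libraries, 0.14, was above that of 19% of all genes tested. Of its exonic bases, 124 are shared with F53G12.18 on the opposite strand.

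*mlt-7* stood at 105.2, 156, 44.1 and 41.0 CPM in N2 libraries 1 to 4, and at 75.8, 47.7, 54.1 and 50.5 CPM in null-labeled libraries 1 to 4. N2 1 and 2 were the 2 highest libraries and N2 3 and 4 were the 2 lowest. In *mlt-8*, *mlt-9* and *mlt-10*, N2 1 and 2 were instead the 2 lowest, and N2 4 was the highest. The means were 86.5 ± 54.8 CPM in N2 and 57.0 ± 12.8 CPM in the null-labeled libraries (SD, n = 4 each), and the log2 fold change was -0.60 (SE 0.417, adjusted p = 0.706, exact permutation p = 0.486). The exact tests enumerated 70 arrangements, were two-sided, and could give no p below 0.0286.

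Set per kilobase of exon and averaged over the 8 libraries, *mlt-8* had the highest level, 259 ± 63.2 RPKM (CPM per kilobase; SD, n = 8), followed by *noah-2* at 183 ± 76.8 and *noah-1* at 157 ± 67.8 RPKM. *mlt-10* came next at 116 ± 52.9 RPKM, then *mlt-11* at 83.4 ± 40.0 and *mlt-9* at 82.7 ± 35.1 RPKM. *fbn-1* and *mlt-7* were close to each other, at 29.0 ± 21.7 and 28.5 ± 15.9 RPKM, and *bli-3* was lowest at 10.2 ± 0.99 RPKM. Neighbors in this order differed by less than the larger of their SDs, except at the steps from *mlt-9* to *fbn-1* and from *mlt-7* to *bli-3*. The highest library of *bli-3*, 11.5 RPKM, lay below the lowest of *mlt-7*, 16.3 RPKM. In single libraries the order changed. In N2 1, *noah-2* at 185 RPKM stood above *mlt-8* at 169.8 RPKM, in null-labeled 3 *mlt-10* at 130.2 RPKM stood above *noah-2* at 57.8 RPKM, and *fbn-1* ranged from 1.54 to 60.6 RPKM.

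**Figure D2:**
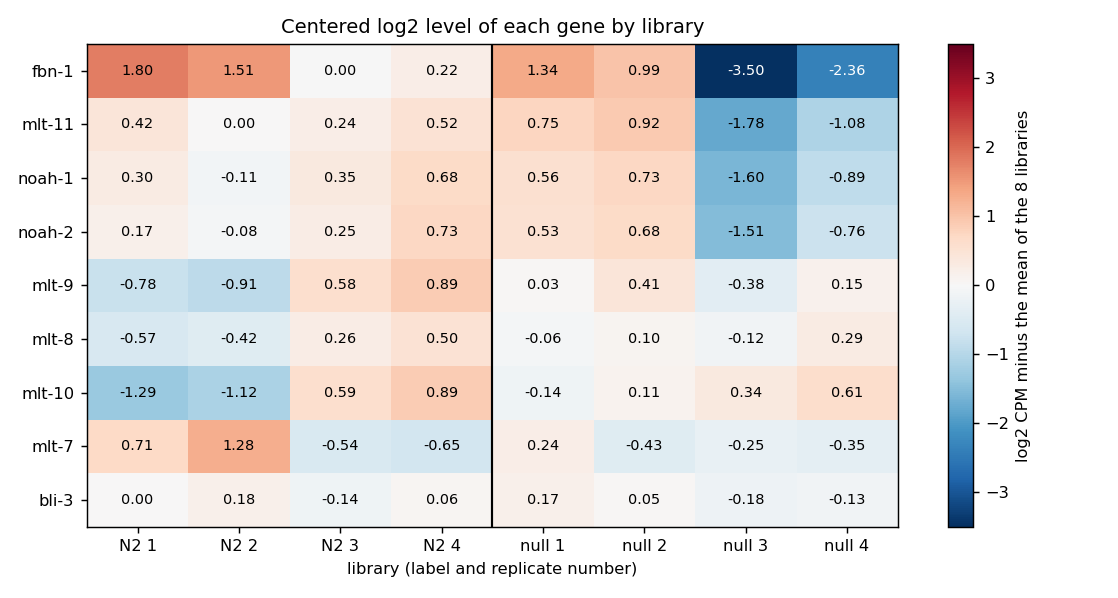
Log2 CPM of each gene (rows) minus its mean over the 8 libraries, in each library (columns, N2 on the left and null-labeled on the right), with color and printed number for the same value. *fbn-1* is at -3.496 in null-labeled 3 and -2.36 in null-labeled 4 beside -1.60 and -0.89 for *noah-1*, whereas *mlt-10* is at 0.34 and 0.61 there and at its lowest, -1.29 and -1.12, in N2 1 and 2.

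The centered levels set the members other than *bli-3* in 3 patterns. *noah-1*, *noah-2*, *mlt-11* and *fbn-1* were low in null-labeled 3 and 4. *fbn-1* shared only that trait closely, at an RMS of 1.07 from *mlt-11*, 1.21 from *noah-1* and 1.26 from *noah-2*. It was also high in N2 1 and 2, at 1.80 and 1.51, where *noah-1* was at 0.30 and -0.11. *mlt-8*, *mlt-9* and *mlt-10* were low in N2 1 and 2, and *mlt-8* and *mlt-9* were the closest pair among them at an RMS of 0.303, with *mlt-9* and *mlt-10* at 0.380. *mlt-7* was high in N2 1 and 2, and *bli-3* varied little. The largest distance of any pair was that between *mlt-10* and *fbn-1*, an RMS of 2.34. The log2 ratio of *mlt-10* to *fbn-1* was -2.56, -2.11, 1.12 and 1.195 in N2 libraries 1 to 4, and -0.95, -0.35, 4.37 and 3.498 in null-labeled libraries 1 to 4. Within each label the ratio was lower in libraries 1 and 2 than in 3 and 4, and at every replicate number it was higher in the null-labeled library. These groupings were read from the same values they describe and were given no test.

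Because libraries 1 and 2 differed from 3 and 4 in both groups, each label comparison was repeated inside each pair of replicate numbers, with 2 libraries per label. This division was known from an earlier analysis of the same values. The labels name no batch for it, and it is not a condition of the study. Since the split was chosen from these values, p-values within each pair can be too small. They describe these libraries only. Within replicates 1 and 2, edgeR called 2 of the 9 members, *mlt-10* at a log2 fold change of 1.18 (adjusted p = 0.0250) and *mlt-9* at 1.07 (adjusted p = 0.0410), both higher in the null-labeled libraries. The share called over all genes in that comparison was 1.62%. *mlt-8*, at 0.51 (adjusted p = 0.0615), was not called. *mlt-7* had the lowest value, -1.09 (adjusted p = 0.110). *noah-1*, *noah-2* and *mlt-11* had values from 0.52 to 0.60 with adjusted p from 0.0749 to 0.129.

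Within replicates 3 and 4, 5 of the 9 members were called, all lower in the null-labeled libraries, where 12.2% of all genes were called. *fbn-1* fell by 2.93 on the log2 scale (adjusted p = 0.00546), *mlt-11* by 1.77 (adjusted p = 0.00668), *noah-1* by 1.72 (adjusted p = 0.00784) and *noah-2* by 1.59 (adjusted p = 0.0113). *mlt-9* fell by 0.83 (adjusted p = 0.0229). *mlt-8*, *mlt-10*, *mlt-7* and *bli-3* were not called.

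*mlt-9* was thus called in both pairs of replicate numbers with opposite signs, and 8 of the 9 members changed sign between them, *fbn-1* being the exception with -0.50 (adjusted p = 0.150) within replicates 1 and 2. The difference between the 2 pairs was not tested. By level alone, both null-labeled libraries stood above both N2 libraries for 6 of 9 members in replicates 1 and 2, beside 28.5% of all genes, and below for 2 of 9, beside 25.9%. In replicates 3 and 4 they stood above for 1 of 9, beside 30.7%, and below for 5 of 9, beside 31.2%.

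**Figure D3:**
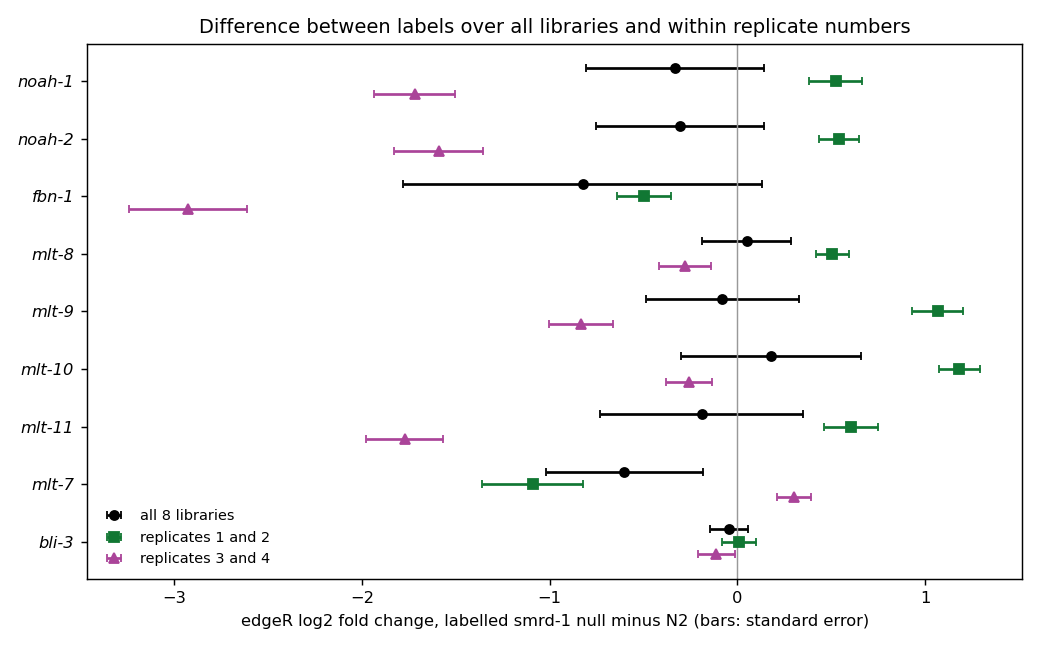
EdgeR log2 fold change of each gene, null-labeled minus N2 (horizontal axis), over all 8 libraries (circles), within replicates 1 and 2 (squares) and within replicates 3 and 4 (triangles), with standard errors as bars. The circles lie between -0.82 and 0.18 with wide bars, while the triangle of *noah-1* is at -1.72 and its square at 0.52.

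Fitting the replicate number as a block called 0.155% of all genes and no member, although it moved *fbn-1* to -1.74 (SE 0.597, adjusted p = 0.165) and turned *mlt-9* to 0.10 (adjusted p = 0.914). The members' median went from -0.19 to -0.38. The block gave -0.61 for *noah-1*, -0.60 for *mlt-11*, -0.54 for *noah-2*, -0.38 for *mlt-7*, 0.46 for *mlt-10* and 0.11 for *mlt-8*. With the 2 pairs of replicate numbers as a covariate, 5.53% of all genes were called and again no member, with *fbn-1* at -1.70 (adjusted p = 0.0846) and *mlt-9* at 0.12 (adjusted p = 0.874). Leaving out any single library left no member called. Without null-labeled library 3 the value of *fbn-1* was -0.45, and without null-labeled library 1 it was -1.49. Without N2 library 2 the value of *mlt-7* was -0.15.

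The other genes of the molting program were read from the same fit, and no gene of the 8 lists was called by edgeR or DESeq2 or had an unadjusted p under 0.05 in edgeR. The precuticle and attachment list had a median log2 fold change of -0.24 over 14 genes. Of these, 11 were lower and 3 higher, beside 8641 and 8167 of all genes tested. The ends of the list were the zona pellucida-domain gene *let-653* at -0.60 (adjusted p = 0.768) and the leucine-rich repeat gene *egg-6* at 0.22 (adjusted p = 0.694). *let-653* was also lowest in null-labeled 3 and 4, with 96.6, 75.1, 48.7 and 68.4 CPM in N2 libraries 1 to 4 and 81.7, 81.4, 10.4 and 17.4 CPM in null-labeled libraries 1 to 4. In replicates 3 and 4, both null-labeled libraries stood below both N2 libraries for 12 of the 14, beside 31.2% of all genes, and in replicates 1 and 2 above for 8 of the 14, beside 28.5%.

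The list of molting regulators, transcription factors and timing genes had a median of -0.27 over 12 genes. Of these, 9 were lower and 3 higher, beside 8641 and 8167 of all genes tested. The nuclear receptor gene *nhr-25* was lowest at -1.02 (adjusted p = 0.646) and the zinc-finger gene *bed-3* highest at 0.15 (adjusted p = 0.895). For 11 of the 12, both null-labeled libraries stood below both N2 libraries in replicates 3 and 4, beside 31.2% of all genes. In replicates 1 and 2 they stood above for 5 and below for 4, beside 28.5% and 25.9%. With the pairs of replicate numbers as a covariate, *myrf-2*, a membrane-bound transcription factor gene, was called at -0.40 (adjusted p = 0.0295). The precuticle gene *dex-1* was also called in that fit, at -0.32 (adjusted p = 0.0383).

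The partners of *bli-3* and *mlt-7* were also examined. In the oxidase and peroxidase list, 8 of 9 genes were tested, with a median of -0.16. Both null-labeled libraries stood above both N2 libraries for 1 of 8 in replicates 1 and 2, beside 28.5% of all genes. They stood below for 5 of 8, beside 25.9%. In replicates 3 and 4 they stood above for 3 of 8 and below for 1 of 8, beside 30.7% and 31.2% of all genes. *doxa-1*, the maturation factor of the dual oxidase, had the lowest value at -0.52 (adjusted p = 0.703), and the peroxidase gene *skpo-1* the highest at 1.09 (adjusted p = 0.639). *skpo-1* was highest in null-labeled 3 and 4, at 87.0 and 61.2 CPM, against 11.7 to 37.3 CPM in N2. *doxa-1* was highest in N2 1 and 2, at 21.9 and 29.3 CPM, where *mlt-7* was also high.

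Mean centered levels of the cuticle assembly list were -0.39 and -0.71 in N2 1 and 2, and those of the *mltn* family -0.36 and -0.81. The *mltn* family was also low in null-labeled 3, at -0.45, and *pdi-2*, *dpy-31* and *dpy-18* of the assembly list had their lowest levels there. The list of blister collagens and collagen-processing enzymes had a median of 0.10 over 7 genes, from *pdi-2*, a protein disulfide isomerase gene, at -0.11 to the collagen gene *bli-6* at 0.28. Both null-labeled libraries stood above both N2 libraries for 7 of 7 genes in replicates 1 and 2 (28.5% of all genes) and below for 6 of 7 in replicates 3 and 4 (31.2% of all genes). Of the 12 *mltn* genes, 9 were tested, with a median of -0.02 and a range from *mltn-2* at -1.02 to *mltn-10* at 0.52. The 5 hedgehog-related and patched-related genes of molting had a median of 0.10, from *ptr-4* at -0.12 to *wrt-5* at 0.26. They stood above in replicates 1 and 2 for 5 of 5 genes and below in replicates 3 and 4 for 3 of 5, beside the same shares of all genes.

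The remaining lists had medians near 0. The protease and inhibitor list had a median of 0.02 over 8 genes, from the astacin gene *nas-36* at -0.25 to the cathepsin L gene *cpl-1* at 0.39. Both null-labeled libraries stood above both N2 libraries for 3 of 8 in replicates 1 and 2, beside 28.5% of all genes. They stood below for 1 of 8, beside 25.9%. In replicates 3 and 4 they stood above for 3 of 8 and below for 2 of 8, beside 30.7% and 31.2% of all genes. The list of NEKL kinases, their MLT partners and endocytosis genes, which act on membrane traffic during molting, had a median of -0.01 over 8 genes, from *nekl-3* at -0.22 to *nekl-2* at 0.20. Its genes stood above in replicates 1 and 2 for 5 of 8 and below in replicates 3 and 4 for 6 of 8, beside 28.5% and 31.2% of all genes. The smallest adjusted p in any of the 8 lists was 0.639.

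**Figure D4:**
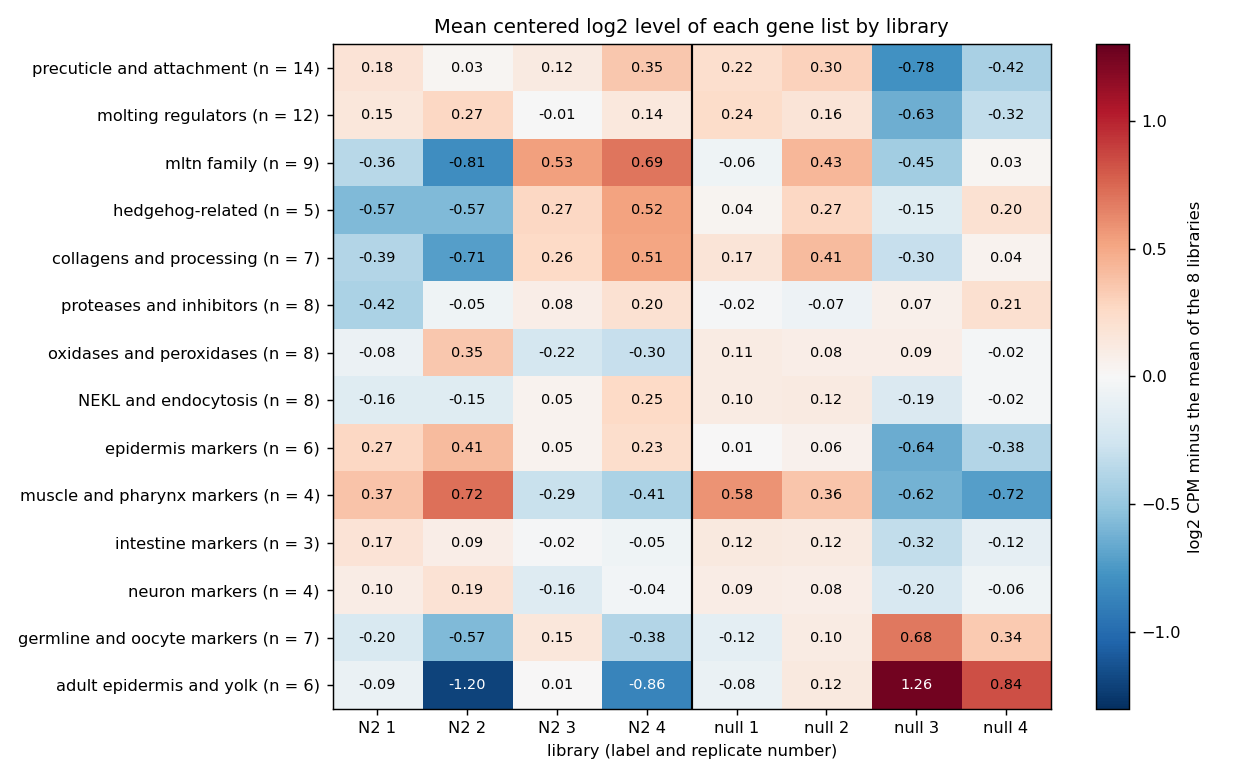
Mean over the tested genes of each list (rows, number of genes in parentheses) of log2 CPM minus the gene's mean over the 8 libraries, in each library (columns). The precuticle list is at -0.78 and -0.42 in null-labeled 3 and 4, where adult epidermis and yolk genes are at 1.26 and 0.84, and the hedgehog-related list is at -0.57 in both N2 1 and N2 2.

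Markers of tissue and stage were read from the same libraries. All marker genes of the 6 lists were detected in every library. The 6 genes of the adult epidermis and yolk list, *col-19*, *col-7*, *col-62*, *vit-2*, *vit-5* and *vit-6*, summed to 5385, 2288, 6110 and 2966 CPM in N2 libraries 1 to 4, and to 5910, 7476, 16220 and 11070 CPM in null-labeled libraries 1 to 4. All 6 had higher fitted levels in the null-labeled group, beside 8167 of all 16808 genes tested, and none was called. Of the 6, 4 had an unadjusted p under 0.05 in edgeR, beside 1301 of all 16808 genes tested. Among the N2 libraries the sums did not divide 1 and 2 from 3 and 4. The 2 libraries with the highest sums were those with the lowest *fbn-1*, *noah-1*, *noah-2* and *mlt-11*. DESeq2 called *vit-5* at 1.77 (adjusted p = 0.0285).

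The 7 germline and oocyte genes summed to 1084 to 1290 CPM in N2 and 1301 to 1637 CPM in the null-labeled libraries. All 7 had higher fitted levels in the null-labeled group, beside 8167 of all 16808 genes tested, and none was called. An unadjusted p under 0.05 in edgeR was found for 3 of the 7, beside 1301 of all 16808 genes tested. The 6 epidermis markers summed to 332 to 413 CPM in N2 and to 165 and 213 CPM in null-labeled 3 and 4, beside 397 and 421 CPM in null-labeled 1 and 2. Most of that gap lay in *dpy-7*, a cuticle collagen gene that was at 209 and 287 CPM in N2 3 and 4 and at 55.9 and 97.6 CPM in null-labeled 3 and 4. The epidermal transcription factor gene *lin-26* was at 68.8 and 68.9 CPM in the first pair and at 59.8 and 67.3 CPM in the second. In the same order, *elt-1* was at 9.14 and 10.1 CPM and at 8.99 and 9.41 CPM. *elt-3* was lower in the second pair, at 26.4 and 28.5 CPM and then 21.1 and 22.3 CPM. So was *nhr-73*, at 1.66 and 2.20 CPM and then 0.437 and 0.759 CPM. *grd-10* was at 17.1 and 16.5 CPM and then 19.2 and 15.8 CPM. The muscle and pharynx markers summed to 4575 to 8015 CPM in N2 and 3540 to 7823 CPM in the null-labeled group, the intestine markers to 540 to 724 and 473 to 694 CPM, and the neuron markers to 222 to 257 and 205 to 243 CPM. In replicates 3 and 4, both null-labeled libraries stood below both N2 libraries for 4 of 4 muscle and pharynx markers, beside 31.2% of all genes. The same held for 4 of 6 epidermis, 2 of 3 intestine and 0 of 4 neuron markers. They stood above for 6 of 6 adult epidermis and yolk and 5 of 7 germline markers, beside 30.7%. The part of stage or tissue content in the members' levels was not tested.

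*nhr-73*, a nuclear receptor gene in the epidermis list, was the only epidermis marker with an unadjusted p under 0.05. It stood at 0.753, 1.52, 1.66 and 2.20 CPM in N2 libraries 1 to 4 and at 0.303, 0.411, 0.437 and 0.759 CPM in null-labeled libraries 1 to 4. Its log2 fold change was -1.68 (SE 0.403, adjusted p = 0.321), and DESeq2 called it at an adjusted p of 0.0071. With the pairs of replicate numbers as a covariate it was called as well (adjusted p = 0.0276), as was the epidermal GATA factor gene *elt-3* at -0.29 (adjusted p = 0.0318).

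The non-member genes whose centered levels lay closest to the mean profile of the 9 were *mab-10* at an RMS of 0.0927, *lin-29* at 0.0963, Y37D8A.3 at 0.0979, K10D3.4 at 0.102 and *gei-13* at 0.105, over 8 libraries. *lin-29* encodes a zinc-finger transcription factor and *mab-10* a NAB-family protein. *lin-29* stood at 62.3, 59.7, 55.2 and 68.9 CPM in N2 libraries 1 to 4 and at 64.9, 67.6, 28.0 and 38.7 CPM in null-labeled libraries 1 to 4, with null-labeled 3 and 4 lowest, as in the mean profile.

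Each member also had a nearest gene of its own, which was looked up after the values were seen. The nearest to *noah-2* was the cuticle collagen gene *dpy-7* at an RMS of 0.0639, and those of *noah-1* were the collagen gene *col-46* at 0.0773 and the lipocalin genes *lpr-1* at 0.0785 and *lpr-3* at 0.0854. *mlt-8* had *ptc-3*, a patched gene, at 0.0557, *mlt-9* had *glf-1* at 0.0578 and *mlt-10* had the hedgehog-related gene *grl-7* at 0.0955. *mlt-11* had the hedgehog-related gene *wrt-10* at 0.102, *mlt-7* the patched-related gene *ptr-3* at 0.0680, and *bli-3* had *gldi-4* at 0.0383. *fbn-1* had no gene as close, with *col-176* at 0.245 and *dpy-6* at 0.247. An RMS also scales with the spread of the gene itself, which was largest for *fbn-1* and smallest for *bli-3*.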

How the data were processed

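Polyadenylated RNA of 8 whole-worm samples was sequenced, and groups and replicate numbers were taken from the sample titles. The authors aligned reads to WBcel235 and deposited raw counts per gene made with featureCounts 2.0.1 and annotation release 112. The count command had no strand option, so overlapping genes could share or lose reads. It had no pair option either, although the paper reports paired-end reads. The mates of a pair were thus counted singly, and counts are of reads and not of independent fragments. The deposited exon length (other) gave the RPKM. No sample column was left unmapped. A second deposited table holds the authors' DESeq2 fold changes and p-values, which were not used. Positions came from release 115 and matched the table for all 9 genes.

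Counts were fitted with edgeR 4.0.16 in R 4.3.3 (TMM, filterByExpr by group, no covariate). Single genes were also tested by exact permutation on log2 CPM with a prior count of 2. The fit was tested on simulated data. DESeq2 1.42.0, its size factors, no filter beyond 1 count, at least 10 counts in every library, a replicate block, a covariate, subsets and leaving out each library were the alternatives.

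Deviations of same-numbered libraries from their group means correlated at 0.357, 0.221, 0.489 and 0.39 across genes, all over 0.1, which met the criterion used for pairing. Some unmatched numbers correlated as highly, such as N2 2 with null-labeled 1 (0.516) and N2 3 with null-labeled 4 (0.461), so the values show libraries 1 and 2 apart from 3 and 4 rather than single pairs, and the labels state no pairing. Members and lists were chosen with earlier results of these data known. Named were the members, *smrd-1*, the highest and lowest gene of each pathway list and any called one, the marker genes, and the 5 genes nearest the members' mean profile. Other genes were chosen after their values were seen. Sequences and promoter motifs were not analysed here. Counting error was small at these depths, the lowest member count being 1148, in reads and not fragments.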

Additional observations from a re-analysis of the deposited data

Results flagged for a closer look

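Each of the 9 genes was checked in each group of 4 libraries for a single library far from the others, by Dixon's 95% critical value, and 0 of the 18 groups passed it. The low libraries came in pairs, which this check does not detect.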

How the results depend on the processing

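No member was called over all 8 libraries with edgeR, DESeq2, other size factors, other filters, the replicate block, the covariate, or any library left out. Genes called over the whole table numbered 26, and 251 with DESeq2, 929 with the covariate, 273 within replicates 1 and 2, 2078 within replicates 3 and 4, and 7 to 14 with 1 library left out. Within replicates 1 and 2, 2 members were called and the median was 0.52. The values that turned there were 1.07 for *mlt-9*, 0.60 for *mlt-11*, 0.52 for *noah-1*, 0.54 for *noah-2* and 0.0093 for *bli-3*. Within replicates 3 and 4, 5 members were called and the median was -0.83. The values that turned there were 0.30 for *mlt-7*, -0.28 for *mlt-8* and -0.26 for *mlt-10*. With the replicate block *mlt-9* turned to 0.10, and with the covariate to 0.12, and the block changed no call of a member. With 1 library left out, the members' median ranged from -0.53 (without null-labeled 2) to -0.0055 (without null-labeled 3). *mlt-8* then ranged from -0.10 to 0.26, *mlt-9* from -0.31 to 0.28, *mlt-10* from -0.089 to 0.59 and *mlt-11* from -0.60 to 0.11. The range was -0.84 to -0.15 for *mlt-7*, -0.69 to -0.056 for *noah-1* and -0.63 to -0.039 for *noah-2*. For *fbn-1* it was -1.49 to -0.45 and for *bli-3* -0.11 to 0.0079. The cause of these shifts was not tested. Other size factors or filters turned no member. SEs over all 8 libraries were 0.104 to 0.957 on the log2 scale.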
